A study of Mus musculus with 8 samples.

Results

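Lung tumour nodules from mice given JQ1 together with an anti-PD-1 antibody were compared with nodules from mice given vehicle, across every gene with enough counts to be tested. The 2 libraries whose treatment label is anti-PD1-JQ1 and the 2 labelled Vehicle make up the comparison, 4 of the 8 libraries of the series. Of 52459 gene symbols in the count table, 14085 passed the low-count filter and were tested. All 8 libraries came from 1 genetically engineered mouse model of lung tumours on a mixed strain background, so every group, vehicle included, carried that model's tumours. The other 4 libraries, 2 from JQ1 alone and 2 from anti-PD-1 alone, entered the same fit. They thus share in the filter, the scaling and the estimate of spread behind every p-value. Their own values are given to show where the combination differed from a single agent. The labels give no dose, time on treatment, age, sex, promoter or Cre driver, and do not say whether a library came from 1 nodule or a pool, or from separate animals. P-values therefore measure only the spread between these libraries, which may be technical. RNA of the whole nodule was sequenced after enrichment of coding regions with capture probes, so fewer cells of a type and less RNA per cell cannot be told apart.

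JQ1 is a small molecule that occupies the acetyl-lysine pockets of the BET family of bromodomain proteins and displaces them from chromatin. BET proteins help to recruit the elongation kinase P-TEFb to promoters and enhancers, and transcription of genes driven by large enhancers, MYC family genes among them in many cancers, depends on it. PD-1 is an inhibitory receptor on activated T cells, and antibodies against it release those cells from inhibition by its ligands PD-L1 and PD-L2. Lung adenocarcinomas of mouse models arise in the lung epithelium and commonly carry markers of alveolar type 2 cells, the cells that make surfactant.

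The 4 compared libraries differed in depth and in what their counts consisted of. The vehicle libraries held 12615865 and 15224108 counts, and the combination libraries 2719816 and 9034331. Rows annotated as ribosomal RNA or overlapping an annotated ribosomal RNA gene on chromosome 17, most of it the lincRNA row Gm42418, took 23.7% and 21.8% of counts in vehicle and 46.0% and 52.5% in the combination, against 23.5% to 35% over the other 4 libraries. Gm42418 had 2607740 and 2886146 counts in vehicle and 1103881 and 4268917 in the combination. In CPM, counts scaled to the same TMM-adjusted library size, it was at 199000 and 165000 in vehicle and 464000 and 703000 in the combination. Gm42418 was itself higher in the combination, with a log2 fold change of 1.68 (adjusted p = 0.0297, edgeR quasi-likelihood F test). Outside those rows, the share of counts on non-coding genes was 4.54% and 4.69% in vehicle and 11.6% and 10.6% in the combination. By Xist and Y-linked counts both vehicle libraries were male, while combination replicate 1 was female and replicate 2 male. These differences run along the comparison, and their part in the results was not tested beyond leaving out those rows and adding a sex term: without the ribosomal RNA rows 661 of the 676 calls were kept, and with sex as a term 286 were. For the labelled tissue, Nkx2-1, the lung lineage transcription factor, was at 401 to 2120 CPM, and Sftpc, surfactant protein C, at 453 to 3250 CPM over all 8 libraries.

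In the combination, 676 of 14085 tested genes (4.8%) passed an adjusted p of 0.05 against vehicle, 344 higher (2.44%) and 332 lower (2.36%), with edgeR's quasi-likelihood F test after adjustment over all tested genes. With upper-quartile scaling in place of TMM the split was 408 higher and 242 lower, and with genes kept at a mean count of at least 50 it was 500 and 293. At an unadjusted p under 0.05 there were 3845 genes (27.3%), and at an adjusted p of 0.05 DESeq2 called 1632 (11.6%) and limma voom 684 (4.86%). Both combination libraries lay above both vehicle libraries for 29.5% of tested genes and below both for 29.1%; none of the 676 called genes overlapped between the groups. In the same fit, JQ1 alone and anti-PD-1 alone each had 0 called genes (0.0%) against the same 2 vehicle libraries, with 1427 (10.1%) and 278 (1.97%) genes at an unadjusted p under 0.05. The count of calls moved with single libraries: 15 genes were called without combination replicate 2, 19 without vehicle replicate 1 and 7 without vehicle replicate 2. Without the shallow combination replicate 1 there were 1115. Leaving out anti-PD-1 replicate 1 or 2 also lowered the count, although neither library is part of the comparison. Each such fit repeated the low-count filter, the scaling and the shared estimate of spread. The separate parts of these steps were not tested. None of the 676 called genes changed direction under any setting that was run.

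**Figure D1:**
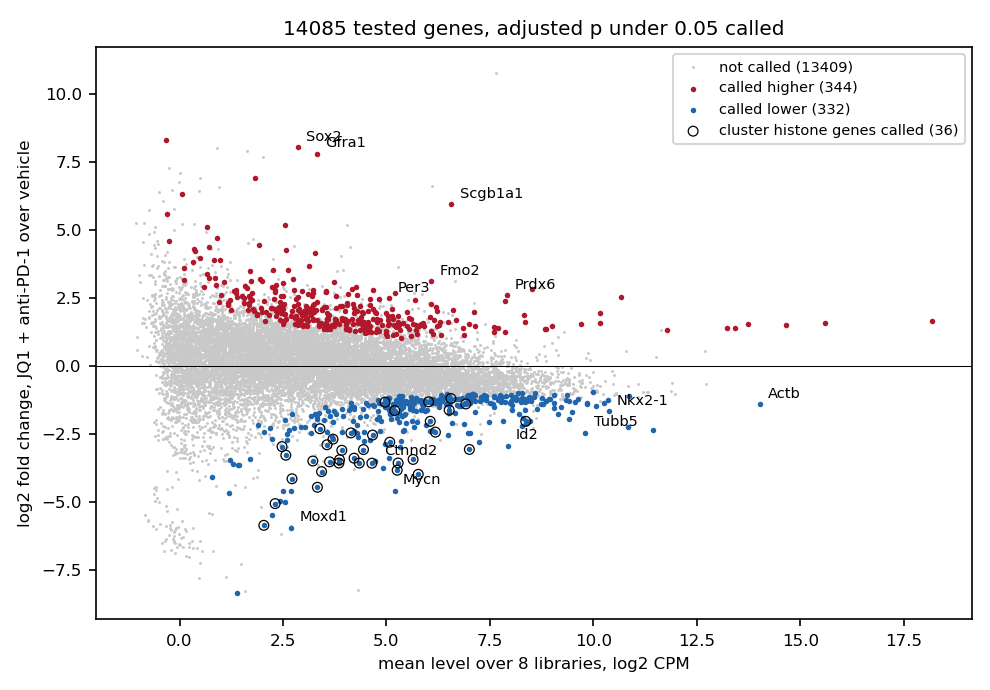
Log2 fold change of the combination over vehicle (vertical axis) against mean level over the 8 libraries in log2 CPM (horizontal axis, log scale) for the 14085 tested genes. Red points are the 344 genes called higher, blue points the 332 called lower and black rings the 36 called cluster histone genes, which all lie below 0.

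**Figure D2:**
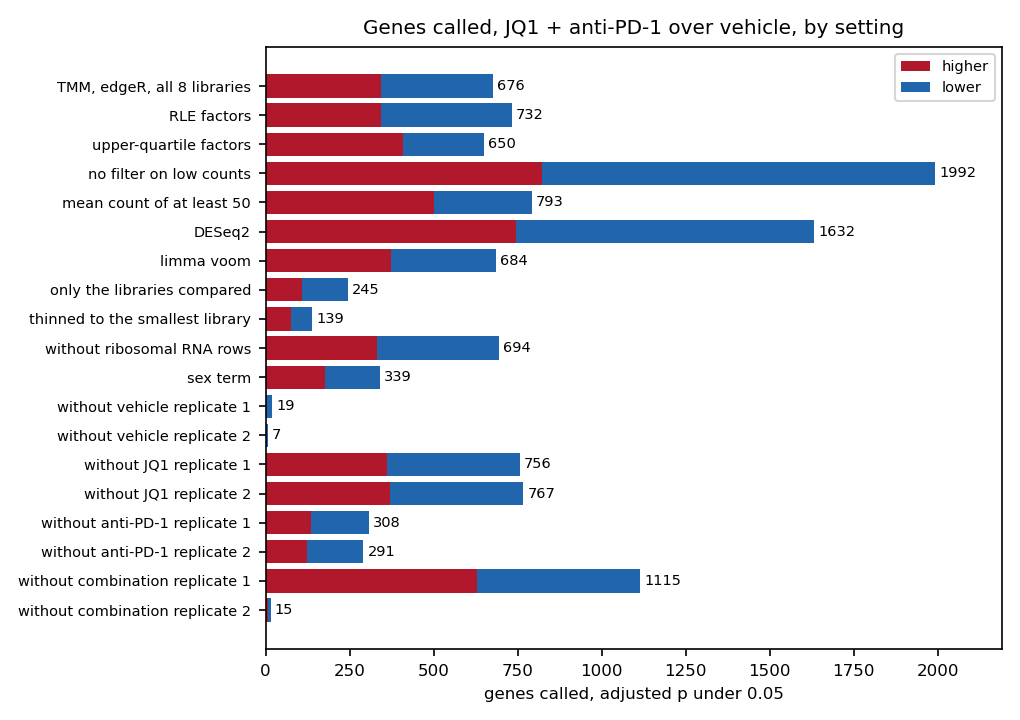
Number of genes called in the combination against vehicle under each setting, with genes called higher in red and lower in blue. The count is 676 with all 8 libraries, 1115 without combination replicate 1 and between 7 and 19 when either vehicle library or combination replicate 2 is left out.

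The called genes differed by size of effect and by level. The median absolute log2 fold change was 1.89 among genes called higher and 1.5 among genes called lower, against 0.67 over all tested genes. Genes called lower were more abundant, with a median mean level of 5.72 log2 CPM against 3.66 for genes called higher and 3.08 for all tested genes. Protein-coding genes made up 96.0% of the genes called lower, 87.8% of those called higher and 89.8% of those tested. Chromosome 13 held 13.1% of the genes called lower and 3.78% of those tested; without the cluster histone genes its share of the called lower genes was 2.74%.

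The replication-dependent histone genes made up 36 of the 332 lower genes. They encode the core and linker histones that package newly made DNA, sit in clusters, and give transcripts that end in a stem loop and mostly lack a poly(A) tail. Of 70 such genes with a row, 57 were tested. Of these 36 were lower in the combination (63.2%, against 2.36% of all tested genes) and 0 higher. Their median log2 fold change was -2.44, against 0.07 over all tested genes. The summed level of the 70 genes was 2700 and 3050 CPM in vehicle, 2410 and 2460 CPM with anti-PD-1, 1610 and 1080 CPM with JQ1, and 589 and 874 CPM in the combination. Both combination libraries were thus the lowest of the 8. By histone type, 10 of 14 tested H2A genes, 11 of 15 H2B genes, 6 of 11 H3 genes and 9 of 12 H4 genes were lower, while 0 of 5 linker histone H1 genes were called. The H1 genes summed to 64.1 and 51.7 CPM in vehicle and to 26 and 106 CPM in the combination, so that the groups overlapped.

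Hist1h2bm, an H2B gene at chr13:21722044-21722567 (GRCm38), stood at 87.2 and 112 CPM in vehicle and at 6.3 and 6.42 CPM in the combination. JQ1 alone gave 43.1 and 22.7 CPM and anti-PD-1 alone 94.5 and 57.8 CPM for this gene. Every single-agent library thus lay between the combination and the higher vehicle library. Its log2 fold change was -3.97 with a standard error (SE) of 0.42 (adjusted p = 0.00712). Hist1h4j, an H4 gene, was at 25.9 and 24.2 CPM in vehicle and at 1.26 and 2.63 CPM in the combination, a log2 fold change of -3.55 (SE 0.43, adjusted p = 0.00893). Both genes were called in 7 of the 8 fits that left out a library. Hist1h2ae had 95 and 129 counts in vehicle and 0 and 1 in the combination, a ratio of 62.0 with a counting interval of 11 to 2460. Cluster histone genes are near-identical copies, so counts of single members are uncertain. Against anti-PD-1 alone 34 of the 57 were called, and against JQ1 alone 0 were. The count of 36 lower genes became 33 with a sex term, 32 without combination replicate 1, 5 without combination replicate 2, 7 without vehicle replicate 1 and 2 without vehicle replicate 2.

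A minority of cell division genes were called. Of 24 tested mitosis genes 2 were lower (8.33%, against 2.36% of all tested genes) and 0 higher, with a median log2 fold change of -1.15. Both combination libraries lay below both vehicle libraries for 17 of the 24, against 29.1% of all tested genes. Of the 28 listed genes 10 had 0 counts in the shallow combination replicate 1, which limits what could be called. Plk1, a kinase that drives mitotic entry and spindle assembly, was at 4.19 and 4.81 CPM in vehicle and 0.42 and 0.329 CPM in the combination (log2 fold change -3.61, SE 0.71, adjusted p = 0.0309). Kif23, a kinesin of the central spindle, went from 31.6 and 29.2 CPM to 6.72 and 4.94 CPM (-2.42, SE 0.54, adjusted p = 0.0383). Mki67, the usual proliferation marker, was at 13.3 and 16.5 CPM in vehicle and 4.62 and 9.05 CPM in the combination and did not pass (adjusted p = 0.205). Among 33 tested DNA replication genes 1 was lower and 1 higher (3.03% each, near the shares over all tested genes), and the median was -0.99. Mcm2, a subunit of the replicative helicase, was the lower one, at 28.9 CPM in each vehicle library and at 3.78 and 4.61 CPM in the combination (log2 fold change -2.76, SE 0.45, adjusted p = 0.021). Orc6, a subunit of the origin recognition complex, was the higher one, from 3.74 and 3.15 CPM to 9.24 and 12.8 CPM (1.7, SE 0.4, adjusted p = 0.0419).

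Most of the actins, tubulins and their small binding proteins were lower. All 16 genes of the list had a negative fold change, and the median was -1.57. Of the 16, 11 were called lower (68.8%, against 2.36% of all tested genes). Their summed level was 33100 and 31000 CPM in vehicle and 9500 and 13600 CPM in the combination, with JQ1 alone at 18000 and 19700 CPM and anti-PD-1 alone at 25900 and 30700 CPM. Tubb5, a beta-tubulin abundant in dividing cells, went from 1140 and 1350 CPM to 174 and 288 CPM, and the log2 fold change was -2.43 (SE 0.33, adjusted p = 0.0127). Actg1, cytoplasmic gamma-actin, went from 3400 and 2180 CPM to 497 and 699 CPM (-2.22, SE 0.3, adjusted p = 0.0133). Actb, cytoplasmic beta-actin, was at 23800 and 23300 CPM in vehicle and 7120 and 10900 CPM in the combination (-1.39, SE 0.29, adjusted p = 0.0327). Actb is often used as a reference gene; here its groups did not overlap. Against JQ1 alone none of the 16 was called, and against anti-PD-1 alone 7 were. The 11 calls became 15 in DESeq2, 7 with a sex term and 1 without combination replicate 2 or without either vehicle library. Actin and tubulin genes have close paralogs, so the split of counts between members is uncertain.

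Pfn1, an actin monomer binding protein on the same list, went from 871 and 649 CPM to 228 and 222 CPM (log2 fold change -1.76, SE 0.25, adjusted p = 0.0149). In the smooth muscle and pericyte list of 18 tested genes, 2 were lower (11.1%) and 1 higher (5.56%). Over all tested genes the shares were 2.36% and 2.44%. Acta2, the smooth muscle actin, was at 246 and 206 CPM in vehicle and at 26 and 56.3 CPM in the combination (-2.44, SE 0.43, adjusted p = 0.0261), and Tpm1, a tropomyosin, at 1030 and 1020 CPM and then 355 and 284 CPM (-1.68, SE 0.26, adjusted p = 0.0177). Rgs5, a pericyte marker, was higher, at 15.3 and 10.9 CPM and then 33.6 and 39.8 CPM (1.49, SE 0.33, adjusted p = 0.0375). Srf, the transcription factor that drives many actin and muscle genes, was chosen after its values were seen; it stood at 115 and 131 CPM in vehicle and 35.3 and 39.3 CPM in the combination (-1.72, SE 0.25, adjusted p = 0.0149). Col1a1, the main chain of fibrillar collagen, fell from 1090 and 820 CPM to 250 and 255 CPM (-1.92, SE 0.3, adjusted p = 0.0178), while in the same fibroblast and matrix list Pdgfra and Dcn were higher. Dcn, the matrix proteoglycan decorin, was at 1.98 and 1.43 CPM in vehicle and 7.14 and 12.8 CPM in the combination (2.58, SE 0.49, adjusted p = 0.0293).

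Airway secretory genes had the largest share called higher among the 58 lists examined, 40.9% of those tested. The list holds genes of club cells, the secretory cells of the bronchioles, with their secretoglobins and detoxifying enzymes. Of 28 listed genes 22 were tested, of which 9 were higher and 0 lower, with a median log2 fold change of 2.59. The summed level was 320 and 311 CPM in vehicle, 821 and 553 CPM with JQ1, 502 and 483 CPM with anti-PD-1, and 1620 and 2340 CPM in the combination. The number of list members called was 8 without combination replicate 1, 7 with a sex term, 1 without combination replicate 2 or without vehicle replicate 1, and 0 without vehicle replicate 2.

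Scgb1a1, the main club cell secretoglobin at chr19:9083636-9087958 (GRCm38), stood at 5.34 and 3.49 CPM in vehicle and at 305 and 244 CPM in the combination. The log2 fold change was 5.96 (SE 0.89, adjusted p = 0.0244). Both single agents also had more than vehicle in each library, at 77.8 and 22.4 CPM with JQ1 and 87.2 and 21.2 CPM with anti-PD-1. The combination was not called against JQ1 (adjusted p = 0.225) or against anti-PD-1 (adjusted p = 0.102). Fmo2, a lung flavin monooxygenase, was at 20.7 and 22.2 CPM in vehicle, 28.4 and 45.4 CPM with JQ1, 26.5 and 32.2 CPM with anti-PD-1, and 215 and 159 CPM in the combination (log2 fold change 3.12, SE 0.32, adjusted p = 0.00712). It was called in 7 of the 8 fits that left out a library, and against anti-PD-1 alone the log2 difference was 2.67 (adjusted p = 0.0167). Aldh1a1, a retinal dehydrogenase, went from 4.19 and 7.27 CPM to 25.6 and 46.9 CPM (2.67, SE 0.46, adjusted p = 0.0227). Other markers of these cells were not called: Cyp2f2, a club cell cytochrome P450, was at 5.34 and 3.21 CPM in vehicle and 30.2 and 24.9 CPM in the combination (adjusted p = 0.214), and Scgb3a2 had 5 counts and 1 count in the combination libraries. Of 13 tested markers of ciliated cells, the neighbours of club cells, 0 were called. Their median log2 fold change was 3.36, with 10 of 13 positive, against 2.3 for JQ1 alone, and their summed level was 44.4 and 40.7 CPM in vehicle and 76.9 and 26.7 CPM in the combination.

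Sox2, a transcription factor of the airway lineage at chr3:34650405-34652461 (GRCm38), had 0 and 3 counts in vehicle and 94 and 117 counts in the combination. The ratio of the normalised levels was 254, with a counting interval of 85.8 to 1240. JQ1 alone gave 22 and 0 counts and anti-PD-1 alone 63 and 8, so that 1 library of each single agent was above both vehicle libraries by more than 10 counts while the other was near them. The combination was not called against either agent. Gfra1, a co-receptor for the growth factor GDNF, was at 0.381 and 0 CPM in vehicle and at 20.6 and 60.2 CPM in the combination (log2 fold change 7.82, SE 1.22, adjusted p = 0.0252), and Apod, a lipid-binding apolipoprotein, at 0.381 and 0.687 CPM and then 16.8 and 8.06 CPM (4.45, SE 1.0, adjusted p = 0.0409). Lifr, the receptor of leukaemia inhibitory factor, went from 7.85 and 9.57 CPM to 65.1 and 57.1 CPM (2.81, SE 0.46, adjusted p = 0.0212).

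**Figure D3:**
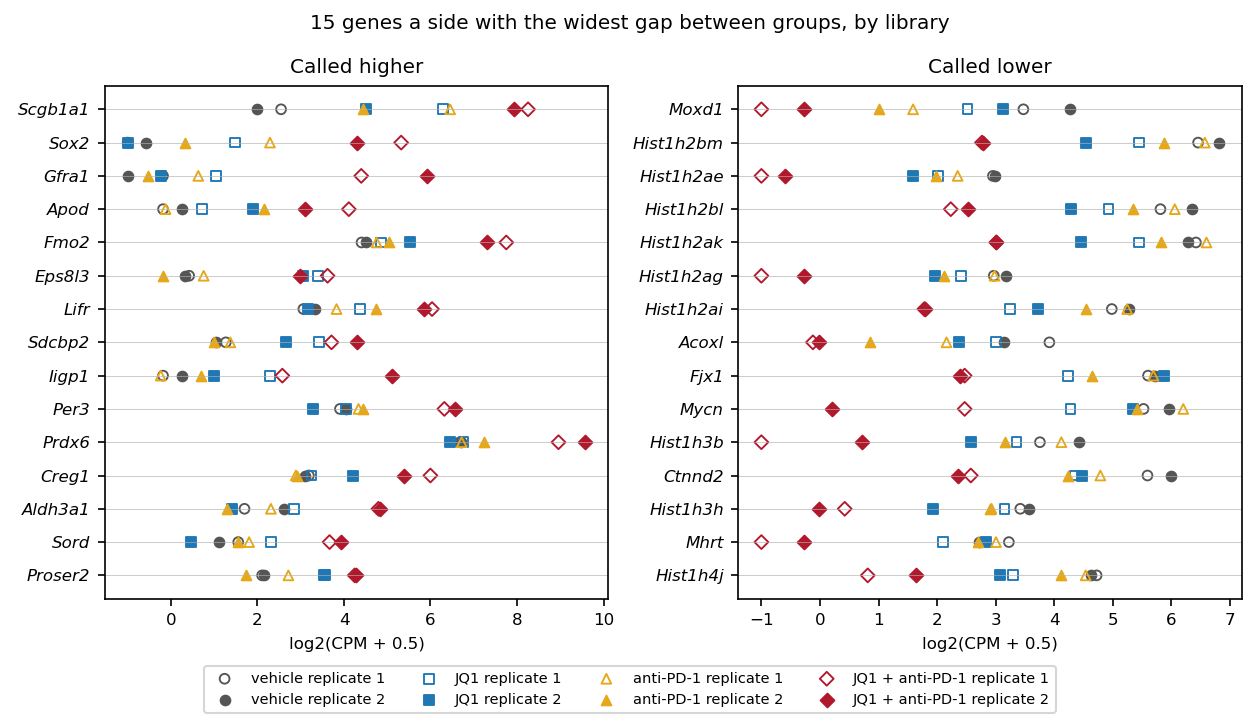
Level of each of 15 genes called higher (left) and 15 called lower (right) with the widest gap between the groups, as log2(CPM + 0.5), with 1 marker per library and open markers for replicate 1. Combination markers lie apart from the vehicle markers in every row, as the choice by gap requires, with the combination above vehicle on the left and below it on the right.

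Lung lineage transcription factors were compared next. Of 22 tested, 4 were lower (18.2%), 1 higher (4.55%) and 17 not called, with a median log2 fold change of -0.94. Over all tested genes 2.36% were lower and 2.44% higher. Id2, an inhibitor of basic helix-loop-helix factors that marks the distal lung tip in development, was at 483 and 392 CPM in vehicle, 238 and 265 CPM with JQ1, 215 and 234 CPM with anti-PD-1, and 67.2 and 49.4 CPM in the combination. The log2 fold change was -2.91 (SE 0.28, adjusted p = 0.00712) against vehicle, -2.12 (SE 0.27, adjusted p = 0.0477) against JQ1 and -1.95 (adjusted p = 0.0181) against anti-PD-1. Id2 was called against vehicle in all 8 fits that left out a library. Nkx2-1 was at 2120 and 1730 CPM in vehicle and at 841 and 401 CPM in the combination (-1.63, SE 0.34, adjusted p = 0.0327). Etv5, an ETS factor that is also a target of ERK signalling and a marker of type 2 cells, went from 438 and 492 CPM to 178 and 74.9 CPM (-1.89, SE 0.43, adjusted p = 0.0411). Markers of surfactant-making cells showed no common direction: among 22 tested type 2 markers 1 was higher and 2, Nkx2-1 and Etv5, were lower, and the median was -0.01. Sftpc was at 2380 and 1150 CPM in vehicle and 2000 and 3250 CPM in the combination (adjusted p = 0.526). Napsa, the protease that processes surfactant protein B, was the higher one, from 88.3 and 46.7 CPM to 150 and 211 CPM (1.42, SE 0.34, adjusted p = 0.0447).

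Other regulators were lower with large gaps. Mycn, a MYC family oncogene, was at 45.5 and 61.9 CPM in vehicle, 18.9 and 40.2 CPM with JQ1, 73.1 and 42.0 CPM with anti-PD-1, and 5.04 and 0.658 CPM in the combination (log2 fold change -4.57, SE 0.78, adjusted p = 0.0276). Myc was at 19.8 and 16.7 CPM in vehicle and at 16.0 and 7.74 CPM in the combination and was not called (-0.67, SE 0.38, adjusted p = 0.274). Of 11 tested MYC family genes and partners 3 were higher (27.3%) and 1 lower (9.09%), against 2.44% and 2.36% of all tested genes. The higher ones were Mycl, the third family member, and the MYC antagonists Mxd1 and Mxd4. Mycl went from 1.45 and 0.859 CPM to 5.88 and 11.5 CPM (2.95, SE 0.56, adjusted p = 0.0285), and Mxd1 from 12.3 and 10.8 CPM to 39.1 and 35.7 CPM (1.7, SE 0.32, adjusted p = 0.0276). Hes1, a Notch target repressor, fell from 77.3 and 58.5 CPM to 25.2 and 10.0 CPM (-2.0, SE 0.41, adjusted p = 0.0327). Phlda1, a gene induced by ERK signalling, fell from 65.1 and 69.7 CPM to 20.6 and 9.38 CPM (-2.22, SE 0.4, adjusted p = 0.0261). With Etv5 and Epha4 it made 3 of 17 tested genes of MAPK output lower (17.6%, against 2.36% of all tested genes) and 0 higher. Ctnnd2, a neural catenin, was at 47.7 and 63.2 CPM in vehicle, 19.9 and 21.6 CPM with JQ1, 27.1 and 18.3 CPM with anti-PD-1, and 5.46 and 4.61 CPM in the combination (-3.48, SE 0.36, adjusted p = 0.00712), and was called in all 8 fits that left out a library.

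The genes of JQ1's own targets were compared next. Of 17 tested genes of the BET proteins and P-TEFb list 1 was higher (5.88%, against 2.44% of all tested genes) and 0 lower. Hexim1, an inhibitor of P-TEFb often used as a marker of BET inhibition, was at 46.0 and 29.4 CPM in vehicle and 26 and 9.22 CPM in the combination (-1.15, SE 0.47, adjusted p = 0.152). The higher gene was Aff1, a scaffold of the super elongation complex, from 34.9 and 35.6 CPM to 63.9 and 151 CPM (1.61, SE 0.39, adjusted p = 0.0467). A separate list of BET inhibitor response markers had 0 of 6 tested genes called. In that list 3 fold changes were positive and 3 negative, with a median log2 fold change of -0.15.

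A minority of genes of the NRF2 antioxidant programme were called higher. NRF2 is a transcription factor that accumulates under oxidative or electrophilic stress and switches on glutathione, thioredoxin and pentose phosphate genes through antioxidant response elements. Of 23 tested genes of the list 6 were higher (26.1%, against 2.44% of all tested genes) and 0 lower. The median log2 fold change was 1.26, against 0.18 for JQ1 alone and -0.24 for anti-PD-1 alone. The list summed to 1280 and 1230 CPM in vehicle and to 1820 CPM in each combination library. Txnrd1, cytosolic thioredoxin reductase, was at 33.6 and 27.2 CPM in vehicle and at 72.3 and 108 CPM in the combination (1.57, SE 0.31, adjusted p = 0.0321). G6pdx, the first enzyme of the pentose phosphate pathway, went from 15.1 and 13.2 CPM to 48.7 and 33.4 CPM (1.53, SE 0.31, adjusted p = 0.0326). Gclc, the catalytic subunit of glutathione synthesis, was at 154 and 161 CPM and then 395 and 363 CPM (1.26, SE 0.28, adjusted p = 0.0382). Its partner subunit Gclm was at 51.3 and 46.0 CPM and then 56.7 and 45.1 CPM and was not called, and neither was the gene of NRF2 itself, Nfe2l2, at 57.7 and 69.8 CPM and then 65.1 and 54.2 CPM. Gsta3 and Gsta4, glutathione transferases with close paralogs, were also called higher, the first from 3.97 and 7.27 CPM to 43.7 and 24.2 CPM. Outside the list, Slc7a11, the cystine importer that feeds glutathione synthesis, was at 25.5 and 25.1 CPM in vehicle and 212 and 63.2 CPM in the combination (2.43, SE 0.52, adjusted p = 0.0378). The 6 calls became 8 in DESeq2, 2 with a sex term, 5 without combination replicate 1, 1 without combination replicate 2 and 0 without either vehicle library.

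Prdx6, a peroxiredoxin that reduces phospholipid peroxides and is abundant in lung, was 1 of 3 genes for which the combination differed from JQ1 alone (0.0213% of tested genes), with 2 of them higher (0.0142%) and 1 lower (0.0071%). It stood at 102 and 104 CPM in vehicle, 108 and 86.7 CPM with JQ1, 105 and 151 CPM with anti-PD-1, and 497 and 765 CPM in the combination. Only the combination libraries were high. The log2 fold change was 2.62 against vehicle (SE 0.31, adjusted p = 0.00893), 2.7 against JQ1 (SE 0.31, adjusted p = 0.0431) and 2.3 against anti-PD-1 (adjusted p = 0.0181). The other two genes called against JQ1 were Id2 and Per3. Against JQ1 410 genes were called in DESeq2, 672 without a filter on low counts, 114 without combination replicate 1 and 0 with a sex term; at an unadjusted p under 0.05 there were 1987 (14.1%). Against anti-PD-1 alone 596 genes were called (4.23%), 303 higher (2.15%) and 293 lower (2.08%), and 3798 (27.0%) had an unadjusted p under 0.05.

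Promoters of all tested members of some lists, whether called or not, were read for sequence matches. The shares thus describe the lists and not the called genes. A match is a description of letters and not a site in use. Windows ran from 250 bases before to 50 after the start in RefSeq's GRCm38.p6 table, and both strands were searched. The antioxidant response element core, TGACNNNGC, a motif chosen after the values were seen, was present for 9 of 20 NRF2 list genes with a window (45.0%) and for 16.9% of all tested genes with one. For G6pdx and for 1 of the 3 windows of Txnrd1 the match starts 57 and 92 bases before the gene's start, shown here in capitals within the 250 upstream bases, 5′ to 3′ on the gene's strand.
G6pdx, chrX:74428881-74429130, minus strand: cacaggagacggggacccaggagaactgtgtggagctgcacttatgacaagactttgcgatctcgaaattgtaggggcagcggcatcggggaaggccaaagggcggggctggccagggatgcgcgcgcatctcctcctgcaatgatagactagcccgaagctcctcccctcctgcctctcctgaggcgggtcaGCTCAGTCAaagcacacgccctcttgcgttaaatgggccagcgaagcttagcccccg
Txnrd1, chr10:82858956-82859205, plus strand: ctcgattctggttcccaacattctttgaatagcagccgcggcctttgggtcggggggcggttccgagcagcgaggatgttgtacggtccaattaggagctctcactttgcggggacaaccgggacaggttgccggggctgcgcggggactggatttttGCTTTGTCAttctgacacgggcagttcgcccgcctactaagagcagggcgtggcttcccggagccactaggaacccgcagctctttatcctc

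Genes of the circadian clock and its output were higher in part. The clock runs on a loop in which the factors CLOCK and BMAL1 activate Per and Cry genes through E-boxes and the Per and Cry proteins repress them, and output factors such as TEF carry the rhythm to other genes. Of 17 tested core genes 3 were higher (17.6%) and 0 lower, and of 13 tested output genes 3 were higher (23.1%) and 0 lower. Over all tested genes 2.44% were higher. Per3, at chr4:151003652-151044665 (GRCm38), was at 14.5 and 15.9 CPM in vehicle, 16.1 and 9.22 CPM with JQ1, 19.7 and 21.2 CPM with anti-PD-1, and 79.4 and 93.8 CPM in the combination. Its log2 fold change was 2.51 against vehicle (SE 0.33, adjusted p = 0.0109), 2.78 against JQ1 (SE 0.33, adjusted p = 0.0431) and 2.09 against anti-PD-1 (adjusted p = 0.0214). Per2 was at 14.6 and 24.6 CPM and then 65.1 and 61.9 CPM (1.69, SE 0.31, adjusted p = 0.0276). Ciart, a repressor of CLOCK and BMAL1, was at 1.14 and 0.63 CPM and then 2.94 and 16.3 CPM (3.51, SE 0.76, adjusted p = 0.0361). Tef, an output factor of the PAR bZIP family, was at 35.8 and 41.2 CPM and then 147 and 128 CPM (1.83, SE 0.29, adjusted p = 0.0177). The genes of the activators were not called: Clock was at 80.8 and 96.5 CPM in vehicle and 70.2 and 90.5 CPM in the combination, and Arntl, the gene of BMAL1, at 24.3 and 21.3 CPM and then 12.2 and 28.1 CPM. Nr1d1, a repressor with a strong daily rhythm, was at 112 and 63.2 CPM in vehicle and at 45.8 and 210 CPM in the combination, so that the 2 combination libraries lay on either side of vehicle. The hour of tissue collection is not in the labels, and its part in these values was not tested. No gene of either list was called without combination replicate 2 or without either vehicle library, while 6 core and 7 output genes were called without combination replicate 1.

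The E-box, CACGTG, was present in the windows of 4 of 13 core clock genes (30.8%) and 3 of 11 output genes (27.3%), against 11.6% of tested genes. It was also present for 6 of 17 glucocorticoid target genes (35.3%), and the antioxidant core was present for 5 of 13 core clock genes (38.5%). In Ciart 3 copies lie 116, 58 and 44 bases before the start, and in 1 of the windows of Tef a copy lies 138 bases before it; both are shown with the E-boxes in capitals.
Ciart, chr3:95882229-95882478, minus strand: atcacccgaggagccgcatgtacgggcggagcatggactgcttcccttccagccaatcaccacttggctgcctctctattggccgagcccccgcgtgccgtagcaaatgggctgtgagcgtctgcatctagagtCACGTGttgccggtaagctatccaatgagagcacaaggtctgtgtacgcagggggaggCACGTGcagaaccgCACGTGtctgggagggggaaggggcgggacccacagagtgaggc
Tef, chr15:81811164-81811413, plus strand: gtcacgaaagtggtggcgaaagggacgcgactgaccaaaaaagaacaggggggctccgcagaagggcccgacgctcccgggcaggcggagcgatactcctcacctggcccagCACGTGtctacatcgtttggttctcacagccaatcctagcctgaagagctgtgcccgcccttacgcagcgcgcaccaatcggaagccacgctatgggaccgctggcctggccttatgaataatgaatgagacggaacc

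Targets of the glucocorticoid receptor, the steroid hormone receptor of the stress response, had a median log2 fold change of 1.61 over 21 tested genes. Of these 3 were higher (14.3%, against 2.44% of all tested genes) and 0 lower. Klf15, a transcription factor also on the clock output list, was at 2.36 and 1.37 CPM in vehicle, 1.67 and 1.13 CPM with JQ1, 4.74 and 1.88 CPM with anti-PD-1, and 11.3 and 54.3 CPM in the combination (4.17, SE 0.76, adjusted p = 0.0298). Glul, glutamine synthetase, went from 109 and 73.0 CPM to 316 and 650 CPM (2.41, SE 0.38, adjusted p = 0.0178), with both anti-PD-1 libraries also above vehicle at 255 and 205 CPM. Fkbp5, a co-chaperone of the receptor, went from 11.8 and 13.5 CPM to 34.9 and 73.7 CPM (2.11, SE 0.41, adjusted p = 0.0303). In all 3 genes combination replicate 2 was the highest of the 8 libraries. The whole list summed to 1240 and 950 CPM with anti-PD-1 alone, and combination replicate 1 lay between these. With JQ1 alone it summed to 683 and 784 CPM. The list summed to 785 and 671 CPM in vehicle and to 1080 and 2780 CPM in the combination, and the number called was 13 without combination replicate 1, 14 in DESeq2 and 0 without combination replicate 2 or without either vehicle library.

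A minority of interferon-induced GTPases and related genes were called higher, at low levels. Such GTPases are made in response to interferon gamma and act against pathogens inside cells. Of 26 listed genes 16 were tested, of which 4 were higher and 0 lower, with a median log2 fold change of 1.64. Iigp1 was at 0.381 and 0.687 CPM in vehicle, 4.4 and 1.48 CPM with JQ1, 0.349 and 1.13 CPM with anti-PD-1, and 5.46 and 34.1 CPM in the combination (5.2, SE 0.99, adjusted p = 0.0327). Gbp2 went from 2.75 and 2.23 CPM to 7.98 and 15.6 CPM (2.28, SE 0.55, adjusted p = 0.0446) and Igtp from 0.229 and 0.802 CPM to 2.52 and 7.24 CPM (3.24, SE 0.77, adjusted p = 0.0433). The fourth was Gm4951, a further GTPase of this family, at 0.458 and 0.115 CPM and then 2.94 and 5.76 CPM. In each of the 4 combination replicate 2 was the higher library. Of 30 type I interferon response genes 17 were tested and 0 called. All 17 had a positive fold change, with a median of 1.08, against 7384 of 14085 positive over all tested genes. Without a filter on low counts 26 of 29 were positive and 3 negative. Without combination replicate 2, 16 of 20 were positive and 4 negative. The summed level of this list was 56.4 and 60.8 CPM in vehicle and 85.7 and 111 CPM in the combination. The 4 calls became 6 without combination replicate 1, 1 with a sex term and 0 without combination replicate 2 or without either vehicle library.

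The core of the interferon-stimulated response element, named here without its letters, was present for 7 of 10 genes of the GTPase list with a window (70.0%) and for 3.63% of tested genes. In Gbp2 it lies 59 bases and in Igtp 34 bases before the start, in capitals here.
Gbp2, chr3:142620413-142620662, plus strand: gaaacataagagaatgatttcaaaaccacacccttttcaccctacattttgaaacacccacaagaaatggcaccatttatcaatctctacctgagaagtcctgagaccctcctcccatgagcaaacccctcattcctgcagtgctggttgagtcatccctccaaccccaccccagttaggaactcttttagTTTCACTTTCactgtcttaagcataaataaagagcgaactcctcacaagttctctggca
Igtp, chr11:58199306-58199555, plus strand: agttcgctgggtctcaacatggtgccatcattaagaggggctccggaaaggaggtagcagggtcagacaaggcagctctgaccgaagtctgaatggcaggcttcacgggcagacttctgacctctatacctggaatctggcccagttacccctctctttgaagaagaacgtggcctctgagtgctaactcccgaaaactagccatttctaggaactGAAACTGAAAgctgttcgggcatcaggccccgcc

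T cell markers were at low counts. Of 28 T cell markers only 4 had enough counts to be tested. Cd8a, the co-receptor of cytotoxic T cells, had 0 and 2 counts in vehicle and 0 in each combination library, and Foxp3, the factor of regulatory T cells, had 2 and 1 counts in vehicle and 0 in each combination library; a count of 0 allows up to 3 counts, so no difference was detectable at this depth. Pdcd1, the gene of PD-1, had 0 counts in both vehicle libraries and 1 and 2 in the combination. Cd274, the gene of PD-L1, was at 1.53 and 1.6 CPM in vehicle and 2.94 and 0.823 CPM in the combination (log2 fold change 0.1, SE 0.73, adjusted p = 0.945). Bcl11b, a T cell transcription factor, was the 1 marker called, with 60 and 129 counts in vehicle and 1 and 0 in the combination, a ratio of 52.3 with a counting interval of 9.27 to 2080. Its vehicle counts were far above those of Cd8a, Foxp3 and Pdcd1, and which cells carried it was not tested. Whether the call goes with T cell number was not tested. The T cell list, Bcl11b included, summed to 16.5 and 18.3 CPM in vehicle and 8.4 and 10.2 CPM in the combination. JQ1 alone gave 25.6 and 10.3 CPM and anti-PD-1 alone 28.3 and 18.5 CPM. MHC class II genes, which mark antigen-presenting cells and some type 2 cells, had 0 of 9 called. H2-Aa was at 208 and 213 CPM in vehicle, 45.1 and 16.7 CPM with JQ1, 309 and 325 CPM with anti-PD-1, and 17.6 and 77.5 CPM in the combination (-2.12, SE 0.65, adjusted p = 0.0916). Of 19 tested alveolar macrophage markers 0 were called.

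Markers of other tissues and cell types also differed. Endothelial markers had 3 of 25 higher and 0 lower, and summed to 197 and 281 CPM in vehicle and 431 and 446 CPM in the combination. Flt1, a VEGF receptor, was at 22.8 and 20.6 CPM and then 47.5 and 48.6 CPM (log2 fold change 1.15, SE 0.28, adjusted p = 0.0462), while Vegfa, its ligand, fell from 478 and 678 CPM to 258 and 192 CPM (-1.36, SE 0.3, adjusted p = 0.0361). The 3 endothelial calls were absent with a sex term and without any 1 of the 4 compared libraries. Striated muscle genes had 3 of 9 tested lower (33.3%, against 2.36% of all tested genes) and 0 higher. Myh7, a cardiac myosin heavy chain, was at 4810 and 3450 CPM in vehicle and 1050 and 594 CPM in the combination (-2.33, SE 0.37, adjusted p = 0.0178), and Myh6 at 524 and 379 CPM and then 136 and 64.7 CPM. Mhrt lies antisense over Myh7 (chr14:54968678-54974349 against chr14:54970684-54994626, GRCm38), and no source used here says whether counting used strand, so the reads of one gene cannot be told apart from those of the other. Gastrointestinal genes had 3 of 17 higher (17.6%) and 1 lower (5.88%), against 2.44% and 2.36% of all tested genes. Gpa33, an intestinal surface glycoprotein, was at 5.72 and 5.5 CPM in vehicle, 19.6 and 34.4 CPM with JQ1 and 21.0 and 32.4 CPM in the combination (2.26, SE 0.39, adjusted p = 0.0226), with a difference from JQ1 of -0.0 on the log2 scale (adjusted p = 0.999).

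**Figure D4:**
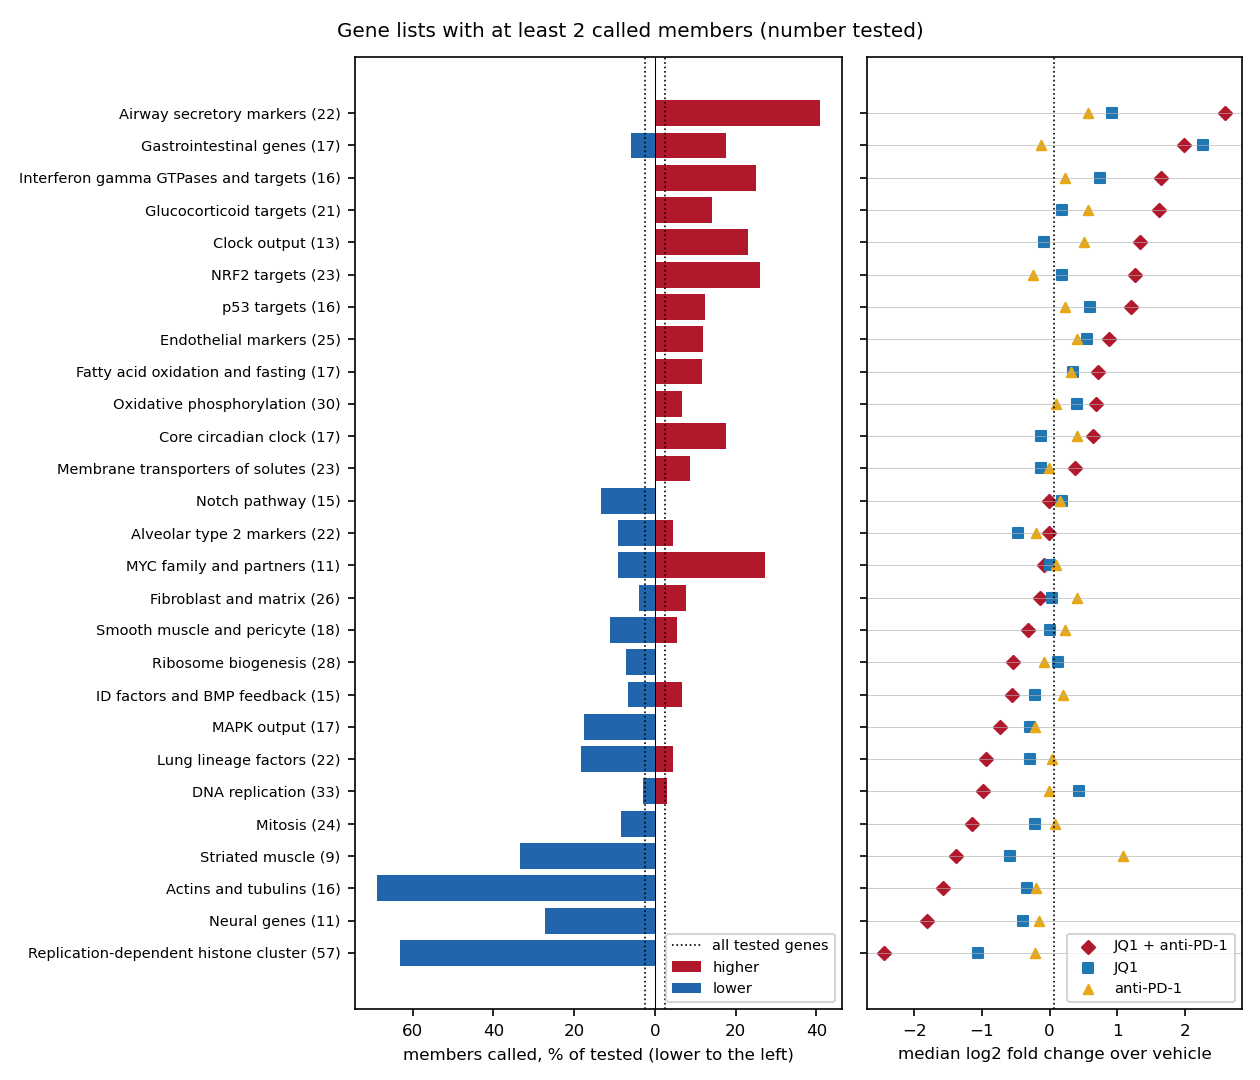
Left, percent of tested members called higher (red, right of 0) and lower (blue, left of 0) for each gene list with at least 2 called members, with the number tested in brackets and dotted lines at the shares over all tested genes (2.44% and 2.36%). Right, median log2 fold change over vehicle for the combination, JQ1 alone and anti-PD-1 alone, which share the vehicle libraries; the histone cluster has the lowest combination median, -2.44, and the airway list the highest, 2.59.

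**Figure D5:**
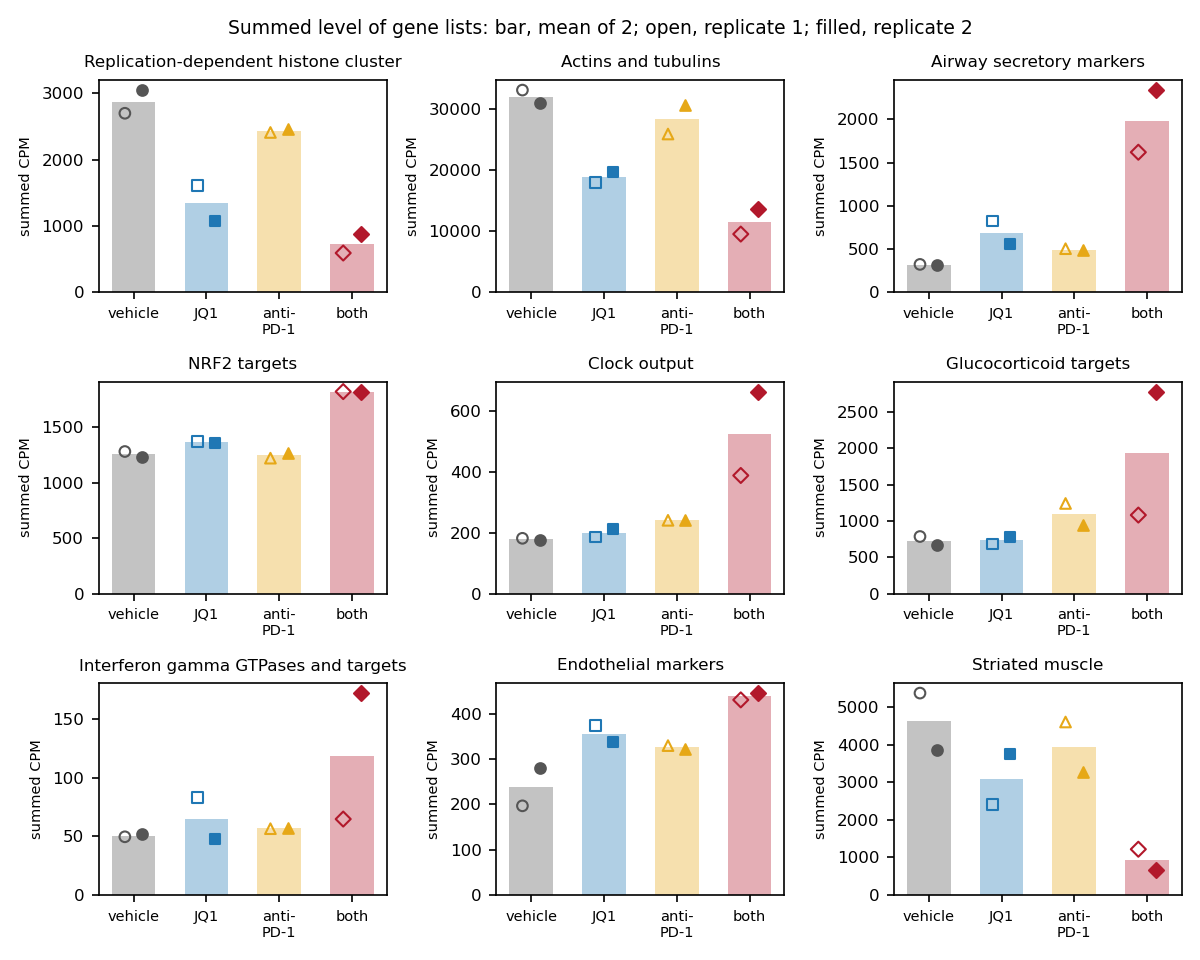
Summed level of 9 gene lists in CPM, with bars for the mean of 2 libraries and 1 marker per library. The glucocorticoid and interferon gamma lists differ most between the combination libraries, at 1080 and 2780 CPM and at 64.7 and 172 CPM.

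Of 4 metabolic lists, each had at most 2 called members. Glycolysis and hypoxia genes had 0 of 23 higher and 1 lower (4.35%), and fatty acid oxidation genes 2 of 17 higher (11.8%). The share called higher was 6.67% for oxidative phosphorylation and 4.35% for cholesterol synthesis, against 2.44% of all tested genes. Fold changes were positive for 15 of 17 fatty acid oxidation, 21 of 30 oxidative phosphorylation and 18 of 23 cholesterol synthesis genes. In glycolysis and hypoxia 9 of 23 were positive, and over all genes 7384 of 14085. Oxidative phosphorylation genes of the nucleus had 2 of 30 called, both higher: Cox6a1, a subunit of cytochrome c oxidase, from 9.3 and 8.99 CPM to 24.8 and 50.0 CPM (log2 fold change 2.05, SE 0.39, adjusted p = 0.0297), and Cox7a2. Cpt1a, which carries fatty acids into mitochondria, was at 12.1 and 11.1 CPM in vehicle and 21.8 and 50.0 CPM in the combination (1.65, SE 0.4, adjusted p = 0.0462). Sqle, an enzyme of cholesterol synthesis, was at 4.12 and 4.3 CPM and then 8.82 and 24.7 CPM (2.03, SE 0.48, adjusted p = 0.0433) and was the only 1 of 23 genes of that list called. Among p53 targets 2 of 16 were higher (12.5%). Trp53inp1, a stress protein, went from 16.1 and 12.1 CPM to 51.3 and 129 CPM (2.69, SE 0.48, adjusted p = 0.0261). Perp, an adhesion protein, went from 10.1 and 5.38 CPM to 25.6 and 45.1 CPM (2.21, SE 0.43, adjusted p = 0.0303). Cdkn1a, the p53 target that halts the cell cycle, was at 5.41 and 4.81 CPM in vehicle and at 4.62 and 70.0 CPM in the combination, and did not pass (adjusted p = 0.102).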

How the data were processed

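RNA from lung tumour nodules was sequenced in 8 libraries, 2 each for vehicle, JQ1, anti-PD-1 and both, taken from the treatment label; replicate numbers follow accession order. Libraries were made with a probe capture kit for coding RNA, per the labels' protocols. The authors deposited raw counts per gene symbol; the submitters' processing notes name bcl2fastq, STAR, featureCounts, DESeq2 and the build mm10 (GRCm38). No source used here gives strand use, versions or parameters.

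Counts were fitted across all 8 libraries with edgeR 4.0.16 (R 4.3.3; TMM factors, filterByExpr by group, robust glmQLFit, glmQLFTest; 4 residual degrees of freedom, biological coefficient of variation 0.332), with Benjamini-Hochberg adjustment over 14085 genes and a call at 0.05. Levels are CPM of the TMM-adjusted library size. The SE is the fold change divided by the square root of F. Replicates of each group differed by more than counting noise. Counting intervals cover counting error only. Alternatives were DESeq2 1.42.0, limma 3.58.1 with voom, other scaling factors and filters, fewer libraries, thinned counts, no rows of ribosomal RNA (with those overlapping its gene on chromosome 17) and a sex term.

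Some items are not reported here. Named genes are the 15 higher and 15 lower called genes with the widest gap between the groups on the log2(CPM + 0.5) scale, and up to 4 called members of each list with the smallest p. Arntl, Cdkn1a, Clock, Cyp2f2, Gclc, Gclm, Mki67, Nfe2l2, Nr1d1, Scgb3a2, Sftpc and Srf fall outside that rule and were chosen after their values were seen. The members and lists were chosen with earlier results of these data known. The antioxidant motif and the gene families of the closing section were added after the values were seen.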

Additional observations from a re-analysis of the deposited data

How the results depend on the processing

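No paired analysis was possible because the labels carry no replicate numbers and those used here follow accession order. Of the 676 genes called against vehicle, DESeq2 kept 669, voom 595 and upper-quartile scaling 582; 0 turned direction under any setting. The number called was 1992 without a filter on low counts, 1632 in DESeq2, 245 with only the 4 libraries compared, 139 with all libraries thinned to the smallest and 339 with a sex term, and it ranged from 7 to 1115 when 1 library was left out. Upper-quartile scaling moved the median log2 fold change of all genes from 0.07 to 0.14 and the share of calls that were higher from 50.9% to 62.8%; a mean count of at least 50 gave 63.1%. Against JQ1 the number was 3, and 672 without a filter, 410 in DESeq2, 0 with only the compared libraries, 5 thinned, 0 with a sex term and 0 to 114 with 1 library left out. Against anti-PD-1 it was 596, and 1920 without a filter, 1537 in DESeq2, 57 with only the compared libraries, 73 thinned, 212 with a sex term and 3 to 967 with 1 library left out. The cause was not tested.

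Reversed signs were found only among uncalled named genes. The log2 fold change of Cd274 was -0.0 without a filter, -0.27 in voom, -0.01 with a sex term and ranged from -0.93 without combination replicate 1 to 0.88 without replicate 2. Eomes ranged from -1.53 to 3.62 between the same settings, Hbb-bs from -1.74 without combination replicate 1 to 2.67 without vehicle replicate 2, and Jchain from -5.22 without combination replicate 2 to 1.85 without replicate 1. With thinned counts E2f1 was at 0.08 and Myc at 0.17. Hbb-bs was at 0.05 in voom and 0.08 without combination replicate 2. Sdc1 was at -0.01 with a sex term. The low depth of combination replicate 1 limits what low genes can show.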

Other observations

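Protein-coding genes of the mitochondrial genome were a family added after the values were seen: of 10 tested 8 were called higher and 0 lower, with a median log2 fold change of 1.53. They summed to 1660 and 1330 CPM in vehicle, 2730 and 2940 CPM with JQ1, 1840 and 1930 CPM with anti-PD-1 and 3330 and 5020 CPM in the combination. As a share of all counts, before scaling, they took 0.172% and 0.153% in vehicle and 0.203% and 0.2% with anti-PD-1. With JQ1 that share was 0.29% and 0.346%, and in the combination 0.292% and 0.337%. The excess over JQ1 in CPM is thus absent from these shares of all counts. All counts include the ribosomal RNA rows, which took a larger part of both combination libraries than of either JQ1 library. These shares therefore cannot show whether the excess is present among the counts outside those rows. The part of scaling and of the larger ribosomal RNA share in these values was not tested. The cytochrome b gene mt-Cytb was at 306 and 272 CPM in vehicle and 721 and 887 CPM in the combination (log2 fold change 1.48, SE 0.24, adjusted p = 0.0212 by edgeR).

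A few non-coding RNAs were chosen after their values were seen, and no list of them was counted. Malat1, which sits in nuclear speckles, was at 6830 and 8390 CPM in vehicle and 25400 and 15000 CPM in the combination (1.41, SE 0.31, adjusted p = 0.0359). Neat1, the scaffold of paraspeckles, was at 572 and 814 CPM and then 6260 and 1790 CPM (2.54, SE 0.52, adjusted p = 0.036). Rn7sk, the RNA that holds P-TEFb inactive, was at 680 and 658 CPM and then 1450 and 2620 CPM (1.6, SE 0.32, adjusted p = 0.0317). The share of counts on non-coding genes differed between the groups in the same direction, and its part in these values was not tested.

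Of 20 hnRNP genes, which encode proteins that package and splice new transcripts, 5 were lower and 0 higher, with a median of -0.75. They summed to 9660 and 9650 CPM in vehicle and 5510 and 4150 CPM in the combination. SR splicing factors had 1 of 10 lower, translation initiation factors 3 of 53 and chaperonin subunits 1 of 6, with 0 higher in each. Over all tested genes 2.36% were lower. These families, the hnRNP genes among them, were taken by gene symbol after the values were seen. Their counts are a description only.

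The motifs searched were also counted over all called genes with a window. CCAAT was present for 41.6% of genes called higher, 45.2% of those called lower and 42.4% of those tested, TTTGGCGC for 0.452%, 1.3% and 1.08%, and TTATGTAA for 0.905%, 0.435% and 0.652%. The interferon-stimulated response element core was present for 6.33%, 1.3% and 3.63%, CACGTG for 12.2%, 12.2% and 11.6%, and TGACNNNGC for 15.8%, 12.2% and 16.9%. The glucocorticoid response element was found for 0 called genes.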
